A study of Homo sapiens with 66 samples.

Results

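This experiment measured whole-cell RNA of human THP-1 cells 5 d after both ADAR and hnRNPC had been targeted by CRISPR. Its members were chosen by group label and day of harvest: the 3 replicate libraries that received ADAR+hnRNPC gRNAs and the 3 that received nontarget gRNA (CTRL), together 6 of the 48 whole-cell libraries of RNA-seq study 1 and of the 66 libraries of the series. THP-1 is a monocytic leukemia line. All cells came from 1 STING-deficient, Cas9-transgenic single-cell clone, so the cytosolic DNA sensing route through STING was missing in the CTRL cells as well, and every group was nucleofected. The other groups used here were targeted for hnRNPC or for ADAR alone on day 5 (the second gRNA being nontarget), received GFP gRNA on day 5, were double targeted and harvested on days 3 and 4 with their own CTRL groups, or were treated with IFN-α and harvested on day 4, with 3 libraries each. The methods name no selection of edited cells, so each library is a mixed population. The labels only number the replicates, and the study describes its replicates as coming from independent experiments. The p-values here measure the spread between these libraries.

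ADAR is the enzyme that converts adenosine to inosine in double-stranded RNA (dsRNA), and its interferon-inducible form edits RNA formed by inverted repeats such as Alu elements. hnRNPC is a nuclear RNA-binding protein that holds on to runs of uridine in pre-mRNA and keeps them from serving as splice sites. MDA5 (encoded by IFIH1) and RIG-I (encoded by RIGI) are cytosolic dsRNA receptors that signal through MAVS to induce type I and type III interferons, which then act through their receptors, the kinases JAK1 and TYK2 and factors including STAT2 and IRF9 on a large set of interferon-stimulated genes (ISGs).

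The gRNAs are shown because they define the experiment. The protospacers are written 5′ to 3′ in lower case with the adjacent PAM, as read from the genome (GRCh37), in capitals. The hnRNPC gRNA matched chr14:21702284-21702303 (+ strand) in a coding exon of HNRNPC, the ADAR gRNA matched chr1:154574128-154574146 (+ strand) in a coding exon of ADAR, and the nontarget gRNA had 0 perfect matches in the genome.
hnRNPC gRNA: gagattcccaatgaatacacGGG
ADAR gRNA: tatatctcgggccttggtaAGG
nontarget gRNA: cgttaatcgcgtataatacg
The hnRNPC gRNA had a second perfect match at chr2:190788111-190788130 (- strand), in the processed pseudogene HNRNPCP2.

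Gene counts per library summed to 106639720, 118450262 and 122451675 in the double-targeted group and 125328747, 144935953 and 149998927 in CTRL. The 10 most abundant genes took 10.6% to 14.3% of a library, and counts in introns amounted to 19.9% to 24.8% of those in genes. No pair of replicates agreed within sampling noise, with a chi-square per gene of 24.3 to 61.7. Levels are given as CPM, the read count scaled to a common effective library size, log2 fold changes are given ± SE, and a gene or intron was called higher or lower at a log2 fold change of at least 1 in size and a p of at most 0.05 from edgeR's quasi-likelihood test, adjusted by the Benjamini-Hochberg method over every feature tested. Double-targeted replicate 3 had the highest value of its group for all 61 antiviral effector genes called higher, and its values are given beside the others throughout.

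The targeted genes differed in their mRNA. HNRNPC stood at 391, 376 and 417 CPM in the double-targeted libraries and at 811, 869 and 818 CPM in CTRL, without overlap (log2 fold change -1.08 ± 0.058 SE, adjusted p = 8.80e-19, edgeR). In bulk RNA, fewer cells with an intact gene and less RNA per cell cannot be told apart. ADAR mRNA was higher, at 1165, 1290.5 and 1509 CPM against 364, 412 and 406 CPM (log2 fold change 1.75 ± 0.082, adjusted p = 1.37e-20). ADAR is itself an ISG, with a log2 fold change of 1.61 after IFN-α, and stood at -0.03 with the ADAR gRNA alone, so its mRNA level does not check the targeting.

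A-to-I editing served as the check of ADAR. Over 140509 listed sites with at least 10 reads in each of the 6 libraries, edited reads made up 2.76%, 2.91% and 2.98% of reads in the double-targeted libraries and 4.40%, 4.73% and 4.63% in CTRL. The group means were 2.89% ± 0.112 and 4.59% ± 0.166 (SD, n = 3), a difference of -1.70 percentage points, and the groups did not overlap (two-sided exact permutation p = 0.1, the smallest that 3 against 3 libraries allow). With the ADAR gRNA alone the level was 1.85% ± 0.035, and with the hnRNPC gRNA alone 4.83% ± 0.178.

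Of 13193 genes tested, 1241 (9.41%) were called higher and 821 (6.22%) lower in double-targeted cells, and these shares are the background for each gene list below. Rises reached further than falls. Among the genes called higher, 353 had a log2 fold change of at least 2, 78 of at least 4 and 11 of at least 8, with a median of 1.49. Among those called lower, 20 reached -2, the most negative value was -2.55 and the median was -1.21. The median over all genes was -0.04. Over all tested genes, every double-targeted library lay above every CTRL library at 4794 (36.3%) and below at 5389 (40.8%), so that groups without overlap were common. In the libraries given IFN-α, 159 genes (1.21%) were called higher against their own CTRL group, and 1092 of the 1241 genes (88.0%) were not among them. Of the genes with an annotated type, 1048 of the higher and 630 of the lower genes were among 11458 protein-coding genes tested. Processed pseudogenes contributed 102 lower genes of 265 tested (38.5%), and since these are near copies of expressed genes whose reads can align to several places, their values are uncertain.

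The genes of the interferon ligands themselves lay below the expression minimum over all 48 libraries. They were therefore tested only in the fit without a minimum. IFNB1, the gene of IFN-β, had 1478, 1623 and 3517 counts in the double-targeted libraries and 4, 2 and 8 in CTRL (12.9, 13 and 26.7 CPM against 0.0313, 0.0142 and 0.0544 CPM), a log2 fold change of 8.98 ± 0.38 (adjusted p = 2.06e-119, edgeR without a minimum). IFNL1, a type III interferon gene, had 186, 273 and 608 counts against 0, 0 and 0, which is at least 389-fold higher when CTRL is set at a floor of 3 counts over the group. IFNL3 had 3, 5 and 35 counts and IFNW1, encoding IFN-ω, had 0, 10 and 18, both against 0 in every CTRL library. These 4 were the ones called higher among the 13 interferon genes that this fit could test, and no IFN-α gene was among them. The list holds 21 interferon genes, and the rest had no counts in any of the 48 libraries. IFNL2, with 5, 4 and 19 counts against 0, was not called (adjusted p = 0.0656).

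**Figure D1:**
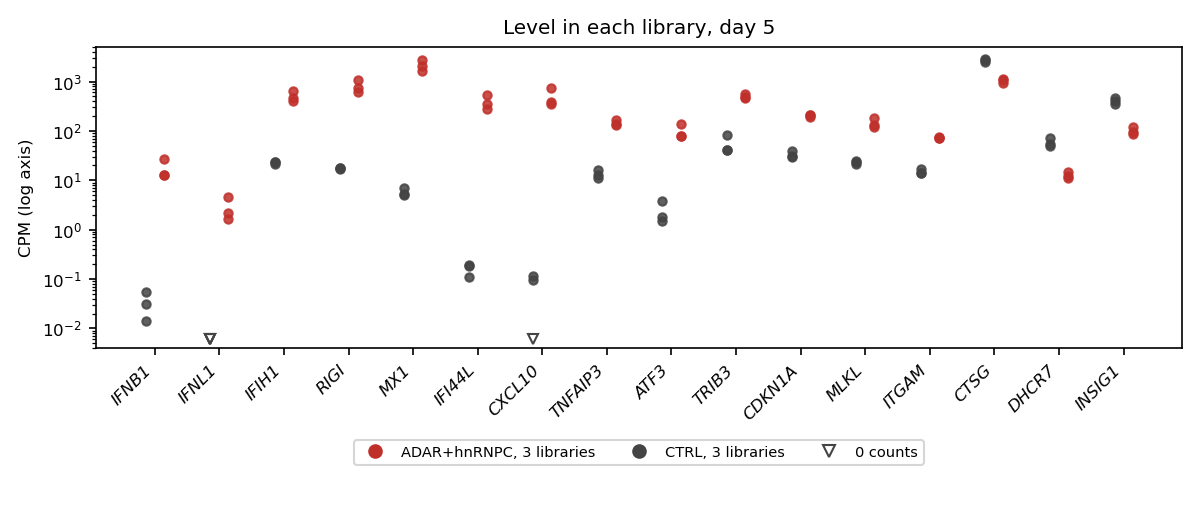
Levels of 16 genes in each library, in CPM on a log axis. Each point is a library (3 CTRL and 3 double targeted), and a triangle marks a library with 0 counts. IFNB1, IFNL1, the sensors, MX1, IFI44L and CXCL10 lie higher in all 3 double-targeted libraries than in all 3 CTRL libraries, and CTSG, DHCR7 and INSIG1 lie lower.

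Most RNA sensors and their partners rose. Of 16 sensor and adaptor genes tested, 10 were called higher and 0 lower, with a median log2 fold change of 1.60. The gene of MDA5, IFIH1, stood at 408, 463 and 639 CPM in double-targeted and 23, 23.9 and 21.8 CPM in CTRL libraries (log2 fold change 4.46 ± 0.12, adjusted p = 4.49e-28). RIGI stood at 623, 728 and 1065 CPM against 18.1, 16.9 and 17.7 CPM (5.52 ± 0.15). EIF2AK2, which encodes the dsRNA-activated kinase PKR, stood at 597, 653 and 719 CPM against 71.8, 79 and 85.1 CPM (3.06 ± 0.11). In all 3 genes the groups were far apart. DHX58, encoding LGP2, a regulator of MDA5 and RIG-I, rose by 4.67 on the log2 scale, and TLR7, an endosomal receptor of single-stranded RNA, by 4.94. Smaller rises were found for the ubiquitin ligase genes TRIM25 (1.34) and RNF135 (1.16), which act on RIG-I, and for the Toll-like receptor adaptors TICAM1 (1.85) and MYD88 (2.63). NLRP1, an inflammasome sensor that dsRNA can activate, stood at 8.61, 9.49 and 13 CPM against 0.398, 0.276 and 0.945 CPM (4.25 ± 0.35). Its log2 fold change with the hnRNPC gRNA alone was 3.07. The shared adaptor gene MAVS (-0.14 on the log2 scale), the kinase gene TBK1 (0.09) and the genes TRAF3 (0.94) and TRAF6 (0.59) were not called. The kinase gene IKBKE was not found among the counted genes and has no value. The DNA sensor gene CGAS (0.87) and PRKRA, encoding an activator of PKR (-0.24), were not called either. TLR3, TLR8, TLR9 and ZBP1 lay below the minimum, and all 4 were called higher in the fit without one.

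The interferon receptor genes were near CTRL while the genes downstream of them rose. IFNAR1 and IFNAR2 had log2 fold changes of -0.06 and -0.01, and the receptor-bound kinase genes JAK1 and TYK2 had 0.14 and 0.31, none of them called. USP18, a negative regulator of the receptor that also removes ISG15 from proteins, stood at 233, 276 and 386 CPM against 4.38, 3.51 and 3.71 CPM (6.27 ± 0.23, adjusted p = 3.16e-24). STAT2 (2.47), STAT4 (2.41), JAK2 (1.37) and the feedback inhibitor SOCS3 (1.05) were among the 6 of 21 tested genes of this list called higher, with 0 lower and a median of 0.31. Of the interferon regulatory factor genes, 4 of 7 were called higher. IRF7, which amplifies interferon gene transcription, stood at 296, 339 and 437 CPM against 9.17, 6.99 and 10.5 CPM (5.33 ± 0.21), and IRF1 (3.02), IRF9 (2.88) and IRF2 (1.89) rose as well. IRF3 and IRF5, which are held ready as proteins in resting cells, had 0.03 and 0.11. IRF8, a factor of monocyte development, stood at 398, 382 and 353 CPM against 766, 793 and 722 CPM (-1.01 ± 0.067), just past the limit, and at -0.96 it was not called with DESeq2 size factors.

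Nearly all antiviral effectors rose. Of 68 genes tested, 61 were called higher and 0 lower, with a median of 4.24 where the median of all genes was -0.04. Genes that were near 0 in the other libraries could reach the minimum only through the groups in which they were high, so this count describes the tested members and is not support in itself. IFI44L stood at 277, 353 and 529 CPM against 0.180, 0.191 and 0.109 CPM (11.24 ± 0.39). MX1, a GTPase that blocks viral nucleocapsids, stood at 1667, 2064 and 2734 CPM against 5.31, 4.99 and 6.94 CPM (8.55 ± 0.23, adjusted p = 2.38e-27). The 2'-5' oligoadenylate synthetase family, whose enzymes are switched on by dsRNA, was represented by OASL at 9.36 and OAS2 at 6.64. BST2, encoding tetherin, rose by 1.23, one of the smaller values among the called genes of this list. The ubiquitin-like modifier ISG15 (6.81), the GTPase gene GBP1 (8.06) and RSAD2, encoding viperin (5.89), lay between these. The 7 tested members that were not called were IFITM2 (0.30), SAMHD1 (0.02), TRIM14 (0.89), TDRD7 (0.45) and the cytidine deaminase genes APOBEC3B (-0.14), APOBEC3C (-0.33) and APOBEC3D (0.59). After IFN-α, 56 of the 68 were called higher.

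The promoters of these genes were searched for GAAA, any 2 bases and GAAA in a row, the core of the interferon-stimulated response element to which IRF9 complexes and other IRFs bind. The search covered both strands from 250 bases before to 50 bases after each start in RefSeq (GRCh38.p14). The motif was found in 36 of 52 antiviral effector promoters with a sequence (69.2%), against 3.65% of all 27305 RefSeq promoters (996) and 2.90% of those of the tested genes. It was found in 9.25% of the promoters of genes called higher (81 of 876), in 41.5% of those with a log2 fold change of at least 4 (22 of 53), in 4.95% of higher genes not called after IFN-α and in 2.43% of lower genes. To show how the motif lies in genes that rose, 6 windows are given, with the motif in capitals. They come from a receptor, 2 effectors, a chemokine, an antigen transporter and a death ligand. Each window is read on the strand of its gene, and TTTC runs mark a motif on the opposite strand. IFI44L and IFIT1 lie on the + strand of the genome, and the other genes lie on the - strand.
IFIH1: agagaatcGAAACAGAAAccaaagtc
IFI44L: ctagtgagGAAAAAGAAAgttagtgg
IFIT1: ctttccccTTTCGGTTTCcctaggtt
CXCL10: atgttttgGAAAGTGAAAcctaattc
TAP1: gctttcgaTTTCGCTTTCccctaaat
TNFSF10: ggagcttcTTTCAGTTTCcctccttt
Their positions (GRCh38.p14) were chr2:162318688-162318713, chr1:78620367-78620392, chr10:89392512-89392537, chr4:76023701-76023726, chr6:32853815-32853840 and chr3:172523600-172523625 in the same order. A match describes these letters and is not a measured binding site. The motif was found in 0 of 22 cholesterol gene promoters and 0 of 19 promoters of integrated stress response genes.

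Chemokine and cytokine genes rose in 11 of 14 tested members, with 0 lower and a median of 3.26. Here too, genes near 0 elsewhere could reach the minimum only through the groups in which they were high. The share and the median therefore describe the tested members only, and the same holds for other lists with members near 0 in CTRL. CXCL10, which attracts T cells through CXCR3, stood at 345, 387 and 744 CPM against 0, 0.113 and 0.0952 CPM, and the related CXCL11 rose by 10.78 on the log2 scale. CCL2, the main monocyte attractant, stood at 19.2, 20.4 and 33.5 CPM against 0.242, 0.0779 and 0.184 CPM (7.19 ± 0.41), and its log2 fold change with the hnRNPC gRNA alone was 3.60. The macrophage growth factor gene CSF1 (5.58), IL1B (4.12), its antagonist IL1RN (3.49), the B cell factor TNFSF13B (3.03), the neutrophil attractant CXCL8 (2.39), IL23A (1.39) and OSM (1.32) rose as well. In the fit without a minimum, 15 of 21 further members were called higher.

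NF-κB is the second branch that MAVS activates. Its feedback and target genes were called higher in 11 of 16 tested members, with 0 lower and a median of 1.48. After IFN-α, 0 of the 16 were called by edgeR or limma-voom, and 8 were higher at an unadjusted p under 0.05. ICAM1, an adhesion molecule, stood at 42.4, 44 and 49.6 CPM against 0.805, 0.666 and 0.973 CPM (5.80 ± 0.29, adjusted p = 6.66e-20), with -0.46 after IFN-α. The survival factor BIRC3 stood at 39.9, 39.6 and 49.6 CPM against 2.25, 1.75 and 2.27 CPM (4.36 ± 0.17). TNFAIP3, encoding the inhibitor A20, stood at 133, 139 and 163 CPM against 10.9, 12.8 and 16.4 CPM (3.43 ± 0.16). The groups did not overlap in any of these genes. Both arms of the feedback rose: the inhibitor genes NFKBIA (2.51), NFKBIB (1.53), NFKBIE (2.52), NFKBIZ (1.44) and CYLD (1.33), and the subunit genes RELB (3.56), NFKB2 (2.73) and NFKB1 (1.10). The subunit genes RELA and REL were not called, at 0.29 and 0.31.

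Antigen presentation moved only in part. TAP1, which carries peptides into the endoplasmic reticulum, stood at 203, 221 and 323 CPM against 38.5, 37.9 and 31.1 CPM (2.79 ± 0.12), and the peptide trimming gene ERAP2 at 39.7, 40.3 and 50.5 CPM against 6.16, 5.32 and 4.88 CPM (3.00 ± 0.15). NLRC5, the transactivator of class I genes, rose by 1.92. HLA-E was at the limit, with 57.1, 39.9 and 77.2 CPM against 29.2, 29.8 and 27.5 CPM (1.01), and was not called without double-targeted replicate 3, at 0.75. B2M (0.10) and the immunoproteasome genes PSMB8 (0.80) and PSMB9 (0.33) were not called. The chaperone gene CALR fell by 1.22 on the log2 scale. In all, 4 of 14 class I genes were called higher and 1 lower, with a median of 0.27, and of 5 tested class II genes 0 were called in either direction by edgeR, DESeq2 or limma-voom (median -0.24), with 1 higher and 4 lower at an unadjusted p under 0.05.

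Cell death genes rose at several points of the receptor pathway. TNFSF10, encoding the death ligand TRAIL, stood at 184, 194 and 295 CPM against 14.6, 16.4 and 16.9 CPM (3.81 ± 0.14). MLKL, the executioner of necroptosis, stood at 123, 134 and 186 CPM against 23, 21.4 and 24.2 CPM (2.69 ± 0.094, adjusted p = 1.52e-24). The receptor genes FAS (2.66) and TNFRSF10B (1.44), the kinase gene RIPK1 (1.28), the caspase genes CASP10 (1.28), CASP1 (1.20) and CASP8 (1.13) and the BH3-only genes PMAIP1 (1.90) and BBC3 (1.70) rose as well. The anti-apoptotic gene BCL2 fell, from 262, 289 and 287 CPM in CTRL to 94.2, 101 and 90.8 CPM (-1.55 ± 0.076). BAX, a pore-forming death effector gene (-0.45), was not called. This made 11 of 31 tested genes higher and 1 lower, with a median of 0.53. AIM2, an inflammasome receptor of DNA, lay below the minimum with 8.13, 12.1 and 21.1 CPM against 0, 0 and 0.0272 CPM.

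Among cell cycle inhibitors and genes of the DNA damage response, 8 of 19 tested genes were called higher and 0 lower, with a median of 0.71. CDKN1A, encoding the inhibitor p21, stood at 208, 190.1 and 209 CPM against 29.4, 31.7 and 39 CPM (2.60 ± 0.21, adjusted p = 5.06e-14), and with the hnRNPC gRNA alone its log2 fold change was 2.66. GADD45A (2.40), SESN2 (2.35), BTG2 (2.23), GADD45B (1.89) and AEN (1.45) rose, whereas MDM2 had 0.37 and was not called. Replication and mitosis genes were lower by small amounts, with 5 of 44 called lower, 0 higher and a median of -0.61. These 5 were BUB1B (-1.44), RRM2 (-1.19), MCM3 (-1.14), CCNE1 (-1.07) and TOP2A (-1.03). MKI67, the proliferation marker, had -0.31.

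The integrated stress response, in which phosphorylated eIF2α favours translation of ATF4 and transcription of its targets, was called higher in 12 of 24 genes and lower in 0, with a median of 1.11. After IFN-α, 0 of the 24 were called by edgeR or limma-voom, and 4 were higher at an unadjusted p under 0.05. ATF3 stood at 80.3, 78.3 and 137 CPM against 1.53, 1.83 and 3.86 CPM (5.35 ± 0.28, adjusted p = 2.04e-19). TRIB3, a feedback inhibitor of ATF4, stood at 477, 459 and 553 CPM against 40.3, 40.5 and 81 CPM (3.20 ± 0.21). In both genes CTRL replicate 3 was the highest of its group, as it was in 20 of the 24 genes. For CHAC1, a glutathione-degrading enzyme, it reached 12.4 CPM where the other CTRL libraries had 0.758 and 0.935 CPM, and for the asparagine synthetase gene ASNS it reached 33 CPM where they had 8.78 and 8.66 CPM. Without that library 15 genes were called higher. INHBE (3.62), PPP1R15A, which encodes the feedback phosphatase subunit GADD34 (2.72), the amino acid transporter gene SLC3A2 (2.08), DDIT3, encoding CHOP (1.71), DDIT4 (1.67), VEGFA (1.91) and ULBP1 (1.34) were among the others called. ATF4 mRNA (0.03) and PSAT1 (-0.10) were not. Few chaperone genes were called: of 20 genes of the endoplasmic reticulum, ERN1 was called higher (1.76) and CALR lower, and of 10 heat shock genes HSPE1 was called lower (-1.04), a call lost with DESeq2 size factors at -0.99.

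Immediate early genes, the first transcribed after a stimulus, were called higher in 10 of 14 tested members and lower in 1, with a median of 1.21. FOSB rose by 3.80, JUN by 3.24, KLF2 by 2.34, JUNB by 1.66, EGR1 by 1.36 and FOS by 1.25 on the log2 scale. The exception was MYC, which stood at 92.1, 95.5 and 93.9 CPM against 212, 211 and 219 CPM in CTRL (-1.19 ± 0.073). The number called higher was 7 without CTRL replicate 2 and 7 with the GFP gRNA libraries as controls.

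Genes of the myeloid lineage were called higher in 8 of 30 tested members and lower in 2, with a median of 0.21. SIGLEC1, a macrophage adhesion receptor that is also an ISG, stood at 155, 191 and 230.1 CPM against 2.98, 1.76 and 3.71 CPM (6.09 ± 0.25). ITGAM, encoding CD11b, stood at 76, 73.4 and 73.1 CPM against 14.2, 13.8 and 16.7 CPM (2.31 ± 0.10, adjusted p = 7.56e-22). VCAN (2.55), CD40 (2.26), KLF4 (2.11), CEBPB (1.57) and CEBPE (1.24) also rose. The 2 lower genes encode granule proteases of immature myeloid cells: CTSG stood at 1052, 1109.8 and 954 CPM against 2521, 2852 and 2771 CPM (-1.39 ± 0.082), and PRTN3 fell by 1.27 on the log2 scale. The lineage factor genes SPI1 (0.27) and RUNX1 (-0.03) and the markers CSF1R (0.33), CD33 (-0.19) and LYZ (-0.60) were not called. These markers were expressed in all 6 libraries. The monocytic marker CD68 was near 0 in both groups, with 0.0611, 0.032 and 0.0227 CPM against 0.0234, 0.227 and 0.034 CPM. CD14 lay below the minimum, with 3.54, 3.34 and 3.93 CPM against 0.234, 0.0991 and 0.272 CPM. In the fit without a minimum, 6 of 8 further members were called higher, CD14 and the progenitor marker CD34 among them, and CD68 was not called. Of 19 markers of other lineages (T, B and natural killer cells, red cells, epithelium and fibroblasts among them), 2 passed the minimum and 0 were called by edgeR, DESeq2 or limma-voom (1 was lower at an unadjusted p under 0.05), their summed levels being 7.61 to 8.07 CPM in double-targeted and 9.95 to 11.7 CPM in CTRL libraries. Without a minimum 2 others were called higher, CD3D at 0.0698, 0.00799 and 0.0758 CPM against 0, 0 and 0 CPM and GNLY at 0.297, 0.352 and 0.614 CPM against 0.0859, 0.0921 and 0.211 CPM, and their part in the other results was not tested.

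Cholesterol synthesis and uptake was the list with the largest share of lower genes among those fixed for this work, apart from a list of 4 genes that the study had chosen. Of 28 genes, 18 were called lower and 0 higher, with a median of -1.23. DHCR7, the enzyme of the last step of the pathway, stood at 11.2, 12.1 and 15 CPM against 50.3, 55.3 and 70.9 CPM (-2.20 ± 0.20). INSIG1, which holds back the activation of SREBP factors, stood at 97.1, 88.4 and 122 CPM against 346, 405 and 471 CPM (-1.99 ± 0.20, adjusted p = 1.77e-11), and SQLE, encoding squalene epoxidase, at 111, 109 and 138 CPM against 339, 376 and 448 CPM (-1.70 ± 0.17). The groups were apart in all 3 genes, and CTRL replicate 3 was the highest CTRL library for 25 of the 28. Without it 18 genes were called lower. Genes along the whole route fell, from HMGCS1 (-1.77), MVK (-1.28), IDI1 (-1.18) and FDPS (-1.60) over FDFT1 (-1.32), LSS (-1.74) and CYP51A1 (-1.48) to MSMO1 (-2.02), NSDHL (-1.05) and SC5D (-1.19). The controlling factor gene SREBF2 (-1.17) and the desaturase gene SCD (-1.97) fell with them. SREBF1 (-0.16), the fatty acid synthase gene FASN (-0.60), the exporter gene ABCA1 (-0.15) and NR1H3, encoding the sterol receptor LXRα (0.57), were not called. With the hnRNPC gRNA alone 8 of the 28 were called lower, and against the hnRNPC-targeted libraries 1 was lower in double-targeted cells.

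Genes of protein synthesis and respiration were lower by less than the limit in most cases. Among 83 tested ribosomal protein genes the median was -0.81, with 13 called lower and 0 higher, and 78 were lower by adjusted p alone. RPL23 stood at 346, 317 and 289 CPM against 759, 808 and 785 CPM (-1.30 ± 0.074). The number called depends on scaling and on single libraries, with 8 under DESeq2 size factors or without double-targeted replicate 3, 23 without double-targeted replicate 1 and 20 without CTRL replicate 1. Of 79 nuclear genes of oxidative phosphorylation 8 were called lower and 0 higher, with a median of -0.61 (68 lower by adjusted p alone), and 13 were lower without double-targeted replicate 1. NDUFB6, a subunit of complex I, stood at 16.6, 14.9 and 14.4 CPM against 35.8, 39.7 and 35.8 CPM. By edgeR, DESeq2 and limma-voom, 0 of the 15 mitochondrially encoded genes and 0 of 30 tested proteasome genes were called, with 2 and 19 lower and 0 and 2 higher at an unadjusted p under 0.05. Ribosomal protein and oxidative phosphorylation lists hold genes with many pseudogene copies, so single values are uncertain.

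Splicing factors and the known hnRNPC-dependent transcripts were looked at next. Of 40 hnRNP and SR protein genes, 5 were called lower and 0 higher (median -0.47): SRSF1 (-1.23), HNRNPA1 (-1.11), HNRNPA0 (-1.10), HNRNPH1 (-1.01) and HNRNPC itself. The study used IARS2, MFSD1, NUCKS1 and EIF3D as transcripts that take up Alu-derived exons without hnRNPC, and since it chose them for this, their fall is not independent evidence. MFSD1 stood at 178, 176 and 173 CPM against 598, 637 and 607 CPM (-1.81 ± 0.052), with -1.77 under the hnRNPC gRNA alone, and IARS2 (-2.09) and EIF3D (-1.36) were called lower too. Of 212 zinc finger genes on chromosome 19, 22 (10.4%) were called higher, near the 9.41% of all genes, and 0 lower. Their median was 0.38, and 34 were higher against GFP gRNA controls. ZNF382, a transcriptional repressor gene of that cluster, stood at 13, 11.9 and 11.7 CPM against 3.27, 3.53 and 4.45 CPM and at 14.1 ± 1.34 CPM (SD, n = 3) with the hnRNPC gRNA alone. Among 13 small nucleolar RNA host genes SNHG12 rose (1.31) and SNHG16 fell (-1.20), each 7.69% of the list. Among 20 transfer RNA synthetase genes WARS1 and CARS1 rose (1.70 and 1.52), which is 10%. These shares are near those of all genes (9.41% higher and 6.22% lower). Among 8 paraspeckle genes 0 were called by edgeR, DESeq2 or limma-voom, with 1 higher and 5 lower at an unadjusted p under 0.05. In ribosome biogenesis, MYC was the only one of 26 listed genes called.

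Genes of tryptophan, NAD, purine and pyrimidine metabolism included further called members, 8 of 14 higher and 1 lower. CMPK2, a mitochondrial nucleotide kinase, rose by 4.97 on the log2 scale. NAMPT, which makes a precursor of NAD, rose by 2.05, the exoribonuclease gene PNPT1 by 2.03, GCH1, the first enzyme of tetrahydrobiopterin synthesis, by 1.68 and the uridine phosphorylase gene UPP1 by 1.42. BST1, an enzyme that consumes NAD, fell by 1.32.

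Among genes with a mean of at least 5 CPM in double-targeted cells, those with the largest rise outside the set called after IFN-α included ADAM28, SDS, ICAM1, ID3, ATF3, HMOX1, MAML2, NUPR1, BIRC3, NLRP1 and the pseudogene OR52K3P, with log2 fold changes of 6.63 down to 4.16. ADAM28, a membrane metalloprotease, stood at 14, 12.9 and 18.6 CPM against 0.0938, 0.0991 and 0.258 CPM, with 2.93 under the hnRNPC and 3.63 under the ADAR gRNA alone. SDS, encoding serine dehydratase, stood at 29.2, 33.9 and 54.6 CPM against 0.563, 0.269 and 1.02 CPM (5.98 ± 0.38). HMOX1, which degrades heme under oxidative stress, stood at 24.7, 23.6 and 24 CPM against 0.789, 0.715 and 0.837 CPM (4.95 ± 0.19), and NUPR1, a stress-induced chromatin protein gene, at 34.8, 34.3 and 42.2 CPM against 0.406, 0.630 and 3.64 CPM (4.56 ± 0.49). HMOX1 was even across the libraries of each group, whereas CTRL replicate 3 held most of the NUPR1 signal in CTRL. Among genes with a mean of at least 10 CPM in CTRL, the largest falls were those of TBC1D30, SERPINB2, DHCR7, SLC40A1, IARS2, PROS1, GPC3, SIM1, MSMO1, RP5-1024G6.8, CAB39L, INSIG1, SEL1L3, SCD and PENK, from -2.48 to -1.96. SLC40A1, the iron exporter ferroportin, stood at 8.72, 8.57 and 8.12 CPM against 35.5, 40.9 and 36.4 CPM (-2.15 ± 0.10, -1.47 with the hnRNPC gRNA alone). TBC1D30 was low throughout, at 1.96, 1.73 and 1.86 CPM against 7.64, 11.6 and 11.6 CPM, with a wide error (-2.48 ± 0.71, adjusted p = 0.00209).

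The double-targeted cells were then set against cells with 1 of the targeting gRNAs on the same day. Against the hnRNPC-targeted libraries, 768 genes (5.82%) were higher and 88 (0.667%) lower. Against the ADAR-targeted libraries, 985 (7.47%) were higher and 639 (4.84%) lower. Against the same CTRL libraries, the hnRNPC gRNA alone gave 525 higher genes (3.98%) and 493 lower (3.74%), and the ADAR gRNA alone 36 higher (0.273%) and 0 lower by edgeR, with 1833 lower at an unadjusted p under 0.05 and 0 lower by limma-voom. The interaction, which asks whether the log2 effect of ADAR targeting in hnRNPC-targeted cells differs from its effect in CTRL cells, was positive at 3185 genes (24.1%) and negative at 3206 (24.3%) at an adjusted p of at most 0.05 over the 12 libraries, with no fold limit. By list, it was positive for 65 of 68 antiviral effectors, 12 of 16 sensors, 12 of 16 NF-κB genes and 15 of 24 integrated stress genes, and negative for 17 of 28 cholesterol genes, 29 of 44 replication genes and 63 of 83 ribosomal protein genes. A high CTRL level adds to the interaction, and the integrated stress genes summed to 1490, 1554 and 2439 CPM in the CTRL libraries. Of these 24 genes, 3 were called lower with the GFP gRNA than in CTRL. Their interaction count was not tested without CTRL replicate 3. For IFIH1 the interaction was 4.10, with 0.13 and 0.23 under the hnRNPC and the ADAR gRNA alone. MLKL had an interaction of 2.55, TAP1 of 2.53 and CXCL10 of 7.51.

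For some genes that rose the interaction did not pass the test. CDKN1A stood at 202 ± 10.6 CPM with both gRNAs and 211 ± 20.9 CPM with the hnRNPC gRNA alone (SD, n = 3), and its interaction was -0.24 ± 0.14 (SE, adjusted p = 0.175, edgeR). CD40 stood at 29.4 ± 2.39 CPM and 22 ± 0.405 CPM (interaction 0.20 ± 0.11, adjusted p = 0.132), and NLRP1 at 10.4 ± 2.30 CPM and 4.58 ± 0.912 CPM (0.17 ± 0.43, adjusted p = 0.768). ADAM28, with rises under each gRNA alone, had an interaction of 0.08 ± 0.42. In CDKN1A the double-targeted and the hnRNPC-targeted libraries differed by less than their spread, whereas CD40 and NLRP1 had the higher mean with both gRNAs. TNFSF13B was lower under the hnRNPC gRNA alone (-1.19) and higher under both (3.03). The same held for EXT1, a heparan sulfate polymerase gene, which stood at 18.6, 22.9 and 38.7 CPM with both gRNAs, 3.28, 2.73 and 3.50 CPM in CTRL and 1.47 ± 0.394 CPM with the hnRNPC gRNA alone. PEX5L, a relative of the peroxisomal import receptor, stood at 13.7, 17.9 and 26 CPM against 3.06, 2.87 and 3.88 CPM in CTRL and 2.18 ± 0.228 CPM with the hnRNPC gRNA alone.

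**Figure D2:**
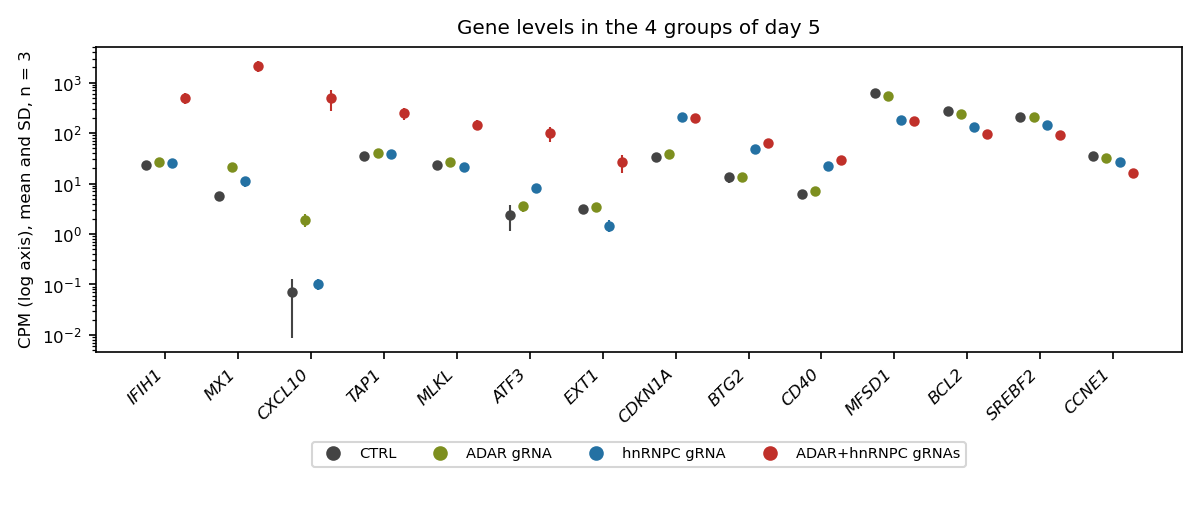
Mean levels ± SD (n = 3 libraries each) of 14 genes in CTRL, ADAR-targeted, hnRNPC-targeted and double-targeted cells on day 5, in CPM on a log axis. IFIH1, MX1, CXCL10, TAP1, MLKL and ATF3 are highest with both gRNAs, whereas CDKN1A stands near its double-targeted level with the hnRNPC gRNA alone.

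On earlier days the double-targeted cells were compared with CTRL libraries of the same day. On day 4, 451 genes (3.42%) were called higher and 170 (1.29%) lower, and on day 3, 114 (0.864%) and 40 (0.303%). Of the genes called higher on day 5, 421 were called higher on day 4, which is 33.9% of the day 5 genes and 93.3% of the day 4 genes, and 90 on day 3 (7.25% and 78.9%). For the lower genes, 137 were shared with day 4 (16.7% and 80.6%) and 21 with day 3 (2.56% and 52.5%). The median log2 fold change of the genes called higher on day 5 was 1.49 on that day, 0.78 on day 4 and 0.27 on day 3. By list, 34 of 68 antiviral effectors, 12 of 24 integrated stress genes and 7 of 16 NF-κB genes were called higher on day 4, and 8 of 28 cholesterol genes lower. IFIH1 had a log2 fold change of 1.21 on day 4 and TRIB3 of 1.88.

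Introns were counted apart from genes, as the table of the authors lists them. Of 21798 introns tested, 1196 (5.49%) were called higher and 1751 (8.03%) lower on the library sizes of the genes, and the median over all introns was -0.28. When the library sizes came from the introns themselves, 1749 were higher and 715 lower, so the balance of directions depends on this choice. Of the 20330 introns with exactly 1 tested host gene, 1113 (5.47%) were higher. The host gene was higher too for 392 of them, not called for 699 and lower for 22. The latter groups, 721 introns in 625 genes (3.7% of the 19509 introns whose host was not higher), are changes in introns without a call for a rise of the gene around them, and numbered 1146 on intron library sizes. Their median log2 fold change was 1.35 with both gRNAs, 1.17 with the hnRNPC gRNA alone and -0.003 with the ADAR gRNA alone, all against the same CTRL libraries.

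**Figure D3:**
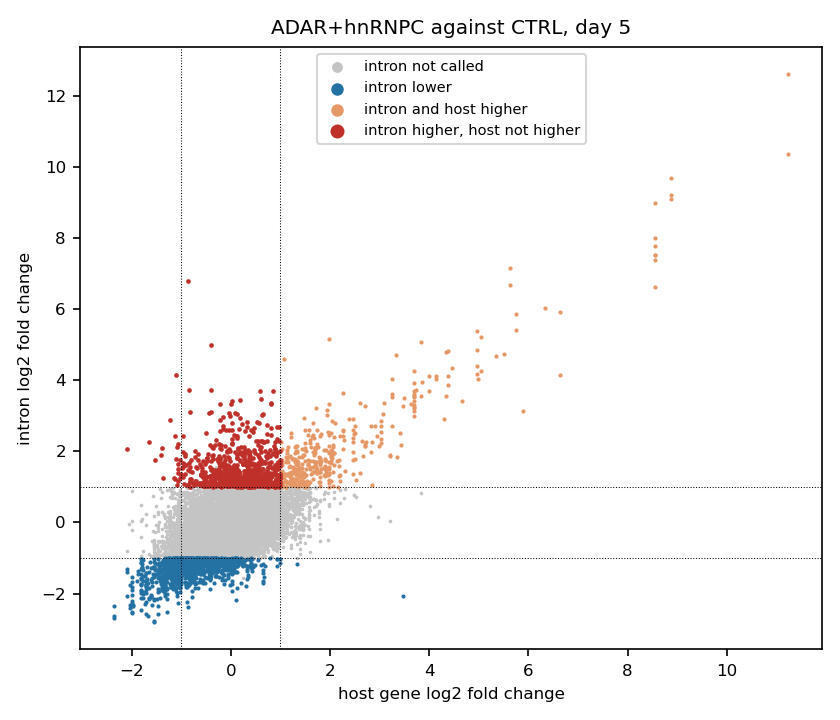
Log2 fold change of each of 20330 introns (y axis) against that of its host gene (x axis), double targeted over CTRL, with introns called higher or lower in color. The 721 introns called higher while the host was not higher lie above 1 on the y axis and belong to hosts that are not called higher.

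Runs of at least 9 T on the strand of the transcript, the kind of sequence hnRNPC binds, were present in 86.0% of these 721 introns, in 66.8% of all 20330 and in 51.1% of the 1600 lower introns. Runs of at least 9 A were present in 63.2%, 59.5% and 49.6%. Longer introns hold more of either, so the comparison was repeated within a length class: among introns of 1 to 10 kb whose host was not higher, 4.73% of those with a T run and 1.44% of those without were called higher. The share with an editing cluster region as listed by the authors was 11.0% among the 721 and 8.09% among all. Within 1 to 10 kb with the host not higher, 3.50% of introns with such a region and 3.57% without were called higher. Within 10 to 50 kb the shares were 11.8% and 4.65%. The regions were defined by the authors from all of their samples, these libraries included, with a minimum of reads per site. An intron that gains reads can pass that minimum more readily, so having a region is not independent of being called higher. How far this shaped the shares was not tested.

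A set of 4 introns called higher whose host gene was not called higher is shown by a 30-base stretch around a T run. Runs are in capitals (strand of the transcript, GRCh37), and the stretches show the kind of run that was counted. Binding of hnRNPC at these runs was not measured.
ACTR3: tccaataaaTTTTTTTTTTTTaccaaaaca
GMPS: ttctttttcTTTTTTTTTTTTcgagacgga
NCOA3: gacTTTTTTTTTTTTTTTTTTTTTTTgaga
MORC3: gctttcTTTTTTTTTTTTTTTTTgagacag
These stretches lie at chr2:114686272-114686301 (+), chr3:155622075-155622104 (+), chr20:46259199-46259228 (+) and chr21:37715742-37715771 (+).

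The intron of ACTR3, an actin-nucleating gene, at chr2:114685033-114688877 stood at 48, 42.4 and 50.6 CPM in double-targeted and 3.13, 2.33 and 2.51 CPM in CTRL libraries (log2 fold change 4.15 ± 0.28, adjusted p = 3.63e-15, edgeR). With the hnRNPC gRNA alone it stood at 43.8 ± 0.309 CPM and with the ADAR gRNA alone at 2.47 ± 0.143 CPM (SD, n = 3), while the gene fell by 1.10 on the log2 scale. The intron of GMPS, a purine synthesis gene, at chr3:155621750-155623948 stood at 15.5, 16.1 and 15.7 CPM against 1.10, 1.23 and 1.27 CPM and at 16.5 ± 0.407 CPM with the hnRNPC gRNA alone. Both introns stood near the hnRNPC-alone level when ADAR was targeted as well, and the same was seen for introns of VEZF1, NCOA3, MORC3 and SRP68, whose log2 difference from the hnRNPC-targeted libraries was between -0.31 and 0.23 and was called in none. For LEPROTL1 the difference was 0.82 (adjusted p = 0.00356). The host genes VEZF1 (0.85), MORC3 (0.61), NCOA3 (0.58) and SRP68 (0.19) had positive log2 fold changes that stayed under the limit of 1. Those of GMPS (-0.84) and LEPROTL1 (-0.40) were negative.

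A further 3 named introns, each beside an ISG, rose with both gRNAs and stood far below that level with either gRNA alone. The intron of LIPA at chr10:91163746-91174314 stood at 21.2, 23 and 32.7 CPM against 0.172, 0.135 and 0.388 CPM in CTRL (6.77 ± 0.34) and 0.545 ± 0.147 CPM with the hnRNPC gRNA alone, and IFIT1 on the other strand, itself higher by 10.22, overlaps its end. The intron of ACO1 at chr9:32440586-32448893 stood at 22, 31.4 and 48.8 CPM against 1.01, 1.10 and 1.12 CPM (4.98 ± 0.28), with RIGI on the other strand 6407 bp away. The intron of MVB12A at chr19:17516531-17529889 stood at 81.6, 88.9 and 118 CPM against 8.70, 8.57 and 9.58 CPM (3.43 ± 0.13), with BST2 on the other strand 92 bp away. After IFN-α these introns of LIPA, ACO1 and MVB12A were called higher as well, with log2 fold changes of 5.34, 2.27 and 2.40. Whether the reads in these introns belong to the neighbouring genes was not tested. Of the 721 introns, 42 (5.83%) lay within 10 kb of another gene called higher, against 574 (2.94%) of the 19509 introns whose host was not higher. Against the hnRNPC-targeted libraries, 107 of the 721 were called higher and 1 lower, where 2.24% of all introns tested were called higher. Of these 107, 10 lay within 10 kb of another gene called higher. The 721 were chosen by their values in double-targeted cells, so the 107 are a description only.

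The named introns called lower whose host gene was not called lower changed less. TTC13 held 1 at chr1:231061394-231064682, which stood at 0.629, 0.895 and 0.697 CPM against 3.81, 3.47 and 2.80 CPM (-2.18 ± 0.20), and the gene had 0.10. In HSH2D, a signalling adaptor gene that rose by 3.48 on the log2 scale, the intron at chr19:16245046-16252750 fell from 19.1, 14.2 and 12.3 CPM to 3.43, 3.87 and 3.65 CPM (-2.06 ± 0.33). Introns of TESMIN, PNPLA3, CCNG2 and VIT fell by similar amounts. Their host genes had log2 fold changes of -0.87, -0.89, -0.79 and -0.79 in the same order, short of the limit of -1. Set against the single-targeted libraries, 488 introns (2.24%) were higher and 301 (1.38%) lower than with the hnRNPC gRNA, and 1202 (5.51%) were higher and 1300 (5.96%) lower than with the ADAR gRNA. On intron library sizes these numbers were 709 and 65 against the hnRNPC gRNA and 1605 and 689 against the ADAR gRNA. The interaction was positive at 1170 introns (5.37%) and negative at 3387 (15.5%).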

How the data were processed

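RNA of the 6 libraries was rRNA-depleted and sequenced as stranded paired reads. The authors aligned reads to GRCh37 with STAR 2.5.4a, per the submitters' processing notes, and deposited raw read counts per gene and per intron (featureCounts), and edited and total read counts per editing site, which were used as deposited. Genes with an average log2 CPM of at least 0.5 (13193 of 57820) and introns of at least 1 (21798 of 197626) over all 48 libraries were tested, after TMM scaling on genes, in 1 edgeR 4.0.16 quasi-likelihood fit (R 4.3.3) with 1 coefficient for each of 16 groups. The interaction was fitted on 12 libraries. Adjusted p-values cover all features tested. On simulated counts for 13193 genes of the main comparison, 50 of 50 genes at each of log2 2 and -2 were called, and 1 of 12993 unchanged genes. Members and the 33 gene lists were chosen with earlier results of these data known. By a fixed rule the text names up to 4 called members of each list in each direction and the members that define it, the 12 highest genes of at least 5 CPM not called after IFN-α, the 15 lowest of at least 10 CPM in CTRL, 10 higher and 6 lower introns whose host was not called the same way, and 6 interactions in each direction. Other list members were named after their values were seen. Alternatives comprised DESeq2 1.42.0, limma-voom (limma 3.58.1), other scalings and filters, GFP gRNA controls and leaving out each library. Deviations from the group mean correlated at 0.071, 0.084 and 0.275 between same-numbered double-targeted and CTRL libraries. Between libraries of unlike number they correlated at -0.203 to 0.172. This does not settle whether replicate numbers pair the samples, and the main fit used no pairing. Promoters and intron sequences came from RefSeq (GRCh38.p14) and GRCh37. Some members of the lists and of the rule are not reported here.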

Additional observations from a re-analysis of the deposited data

Results flagged for a closer look

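The effect of ADAR targeting differed between hnRNPC-targeted and CTRL cells, by the interaction term of edgeR's quasi-likelihood test at an adjusted p of at most 0.05, at 3185 genes in the positive and 3206 genes in the negative direction, and at 1170 introns in the positive and 3387 in the negative direction. Outside the genes called after IFN-α, the named genes with a positive interaction were EXT1 (4.09 on the log2 scale), the epoxygenase gene CYP2J2 (3.96), PEX5L (3.23), the sialyltransferase gene ST6GALNAC3 (3.04), ATF3 (3.04) and TP63 (3.00). Those with a negative one were RN7SL396P (-3.52), the taste receptor gene TAS1R3 (-1.87), RN7SL5P (-1.79), GPX1P1 (-1.73), RN7SL674P (-1.61) and the glycosyltransferase gene MGAT2 (-1.58). The RN7SL rows and GPX1P1 are copies of abundant RNAs, and their counts are uncertain. Groups of 3 libraries are too small for a test of single outlying samples.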

How the results depend on the processing

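The counts over all tested genes stayed within 1.5 times of the values given under every alternative except the fit without an expression minimum, whereas 37 counts of single gene lists under an alternative did not, those of ribosomal protein, IRF and heat shock genes called lower most often. Without that minimum, 3773 genes were higher and 1529 lower, 9466 introns higher and 8965 lower, the intron interaction was positive at 4497 and negative at 6140 introns, and the double-targeted cells had 1886 genes higher and 305 lower than with the hnRNPC gRNA (introns 4287 and 3116) and 3009 higher and 1244 lower than with the ADAR gRNA (introns 8193 and 7129), since more features were tested. With library sizes from introns, 715 introns were lower, 1146 were higher with the host gene not higher, 65 were lower than with the hnRNPC gRNA and 689 lower than with the ADAR gRNA. With all 48 libraries the intron interaction was negative at 1961 introns. With GFP controls the interaction of GPX1P1 turned to 0.23. The cause was not tested. Of the named genes and introns, 25 values under an alternative fell below the limit, in IRF8, HLA-E, HSPE1, MGAT2 and the RN7SL rows. A term for the replicate number (replicate block) gave 1235 genes higher and 815 lower, and a gene interaction positive at 3586 and negative at 3778 genes. It moved none of these counts by more than 1.5 times. Leaving out each library in turn gave 1213 to 1283 genes higher and 733 to 866 lower, 1060 to 1449 introns higher and 1363 to 2190 lower, and an editing difference of -1.79 to -1.63 percentage points. At the editing sites a minimum of 20 reads gave -2.02, no minimum -1.45 and the mean over sites -1.14 percentage points.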
